A study of Mus musculus with 6 samples.

Results

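miR-128 is a brain-enriched microRNA made from a pair of hairpins, Mir128-1 and Mir128-2, and it was examined here in small RNA libraries of the mouse hippocampus after loss of Dicer1 from excitatory neurons. Its rows were taken by name from the deposited tables, as every feature whose name begins with miR-128. There were 4 such rows of 109108 features, 2035 of which are miRNA rows. They stand for 3 distinct mature miRNAs, mmu-miR-128-3p, mmu-miR-128-1-5p and mmu-miR-128-2-5p, because mmu-miR-128-3p is listed once at each hairpin. The species prefix is left out from here on. The comparison asks how the products of both hairpins differ once Dicer1 has been inactivated, the gene of the enzyme that trims miRNA precursors to their mature form.

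The Dicer1-ifKO group held 3 libraries from C57BL/6 male mice with Dicer1 flox/flox alleles and CaMKIIa-creERT2, a Cre recombinase that tamoxifen switches on and whose promoter is active in excitatory neurons of the forebrain. The WT group held 3 libraries from C57BL/6 male mice that also carried Dicer1 flox/flox and had no Cre transgene. All mice were 3 months old and were killed 3 weeks after tamoxifen. Each library pooled RNA of 3 mice, 9 mice for each genotype, so that each p-value rests on the variation among pools. Interneurons, glia and vessel cells, which do not drive this promoter, keep Dicer1 in the Dicer1-ifKO tissue, and in bulk RNA fewer cells of a type and less RNA per cell cannot be told apart.

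Drosha first cuts a hairpin out of the host transcript, Dicer then removes its loop, and Argonaute keeps 1 arm of the duplex, the guide, while the other arm is mostly degraded. In miR-128 the guide is the 3p arm and the passenger is the 5p arm. miR-128 is known as an abundant miRNA of neurons, and mice that lack Mir128-2 in neurons become hyperactive and have seizures. A guide finds its targets mainly through its seed, bases 2 to 8.

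The mature arms are shown first because the counts can be read only against them. They come from RefSeq on GRCm38.p6, which matched all 4 rows by name and position. Capitals mark the seed, and the 3p arm is the same sequence at both hairpins.
miR-128-3p: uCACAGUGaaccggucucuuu
miR-128-1-5p: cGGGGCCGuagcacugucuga
miR-128-2-5p: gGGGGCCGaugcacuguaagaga
Of 1679 mature mouse miRNAs in the same table, 1 had the seed CACAGUG, namely miR-128-3p itself. The passenger arms share the seed GGGGCCG with each other and with no other miRNA in the table. Counted from their 5′ ends over 21 positions, the passenger arms were identical at 16 and differed at 5, as C1G, U9A, A10U, C18A and U19A from miR-128-1-5p to miR-128-2-5p. The passenger arms therefore differ in sequence and can be counted for each hairpin, which the guide cannot.

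The hairpins themselves, with both mature arms in capitals, show where the loci differ.
Mir128-1: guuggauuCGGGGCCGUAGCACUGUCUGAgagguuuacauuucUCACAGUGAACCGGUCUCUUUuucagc
Mir128-2: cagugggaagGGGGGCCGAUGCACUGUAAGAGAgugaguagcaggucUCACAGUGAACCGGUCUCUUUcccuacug
Mir128-1 is 70 nt long, lies on chromosome 1 at 128202361 to 128202430 on the plus strand, and sits in R3hdm1, which encodes an R3H domain protein. Mir128-2 is 76 nt long, lies on chromosome 9 at 112118636 to 112118711 on the minus strand, and sits in Arpp21, which encodes a cAMP-regulated phosphoprotein. In GENCODE M21 (GRCm38) no exon of either host gene overlaps its hairpin, so both are intronic, inside 2 of the 16 annotated R3hdm1 transcripts and 9 of the 31 annotated Arpp21 transcripts. The loop between the arms is 14 nt long in each. Directly after the guide the bases are UUC in Mir128-1 and CCC in Mir128-2. No feature on the opposite strand overlaps either hairpin, so these rows share no reads with a listed antisense feature.

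Over the whole series, miRNA rows held 2318205 to 2739366 counts in Dicer1-ifKO libraries and 2724752 to 3179363 counts in WT libraries. Dicer1 itself was covered by 32 to 37 counts in Dicer1-ifKO libraries and 33 to 47 in WT libraries, which lie anywhere in the gene and so do not check the deletion. Brain origin was checked on miRNAs of known tissues, which cannot tell the hippocampus from other brain regions. The neuron-enriched list held 103682 to 136365 counts in each of the 6 libraries, and the liver, muscle and heart list held 229 to 324. The column header of WT replicate 2 names lane 4 of a run and those of the other libraries name none, so a run or lane batch could not be compared.

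The guide miR-128-3p was lower in Dicer1-ifKO than in WT hippocampus in each library, but the difference did not pass the test across all features. The Mir128-1 row held 26839, 30394 and 27779 counts in Dicer1-ifKO replicates 1, 2 and 3, and 38602, 35980 and 41369 counts in WT replicates 1, 2 and 3. CPM here is counts scaled to the TMM-adjusted sum over the tested features in a library. These counts gave 647, 572 and 592 CPM in Dicer1-ifKO against 789, 753 and 891 CPM in WT. All Dicer1-ifKO values lay below all WT values. The means were 604 ± 39.2 CPM in Dicer1-ifKO and 811 ± 71.9 CPM in WT (SD, n = 3 each). The log2 change was -0.43 ± 0.13 (SE), a ratio of 0.74 with a 95% interval of 0.61 to 0.90, at an adjusted p = 0.22 by edgeR's quasi-likelihood test with Benjamini-Hochberg adjustment over 6539 features.

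The Mir128-2 row of the same guide held 21572, 24572 and 22069 counts in Dicer1-ifKO replicates 1, 2 and 3, against 30846, 31718 and 36425 counts in WT replicates 1, 2 and 3. That is 520, 462 and 470 CPM in Dicer1-ifKO and 630, 664 and 785 CPM in WT, again without overlap. Its log2 change was -0.52 ± 0.14 (SE), a ratio of 0.70 with a 95% interval of 0.57 to 0.86 (edgeR adjusted p = 0.14). Because the mature sequence is identical at both loci, a read of it fits either row, and the rows are not separate results. Summed into 1 row, miR-128-3p stood at 1087 ± 71.3 CPM in Dicer1-ifKO and 1505 ± 149 CPM in WT (SD, n = 3 each), with a log2 change of -0.47 ± 0.13 (SE) and an edgeR adjusted p = 0.16.

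**Figure D1:**
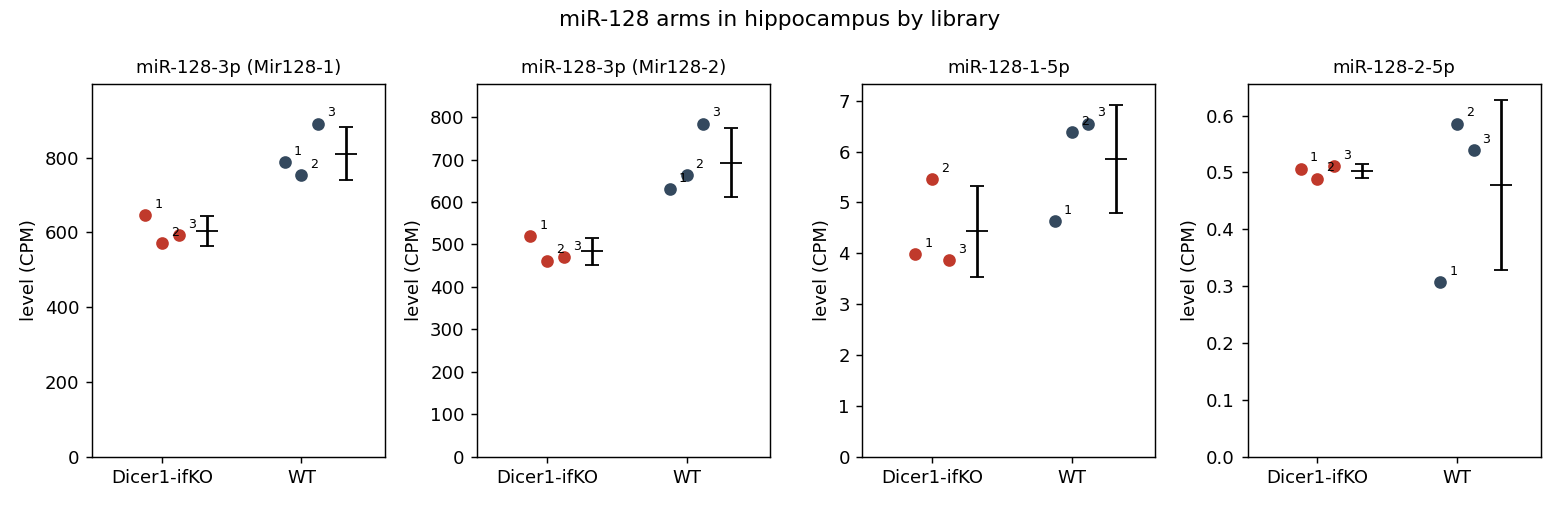
Level of each miR-128 row in CPM (vertical axes from 0) in the 3 Dicer1-ifKO and the 3 WT libraries, numbered by replicate, with the group mean and SD beside the points. For miR-128-3p at both hairpins the Dicer1-ifKO points lie below all WT points, while for both passenger arms the groups overlap.

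The passenger arm of Mir128-1 was far scarcer than the guide. miR-128-1-5p held 165, 290 and 181 counts in Dicer1-ifKO replicates 1, 2 and 3, and 227, 305 and 304 counts in WT replicates 1, 2 and 3. Its levels were 3.98, 5.45 and 3.86 CPM in Dicer1-ifKO and 4.64, 6.38 and 6.55 CPM in WT. The groups overlapped, since Dicer1-ifKO replicate 2 lay above WT replicate 1. The log2 change was -0.40 ± 0.20 (SE), and its 95% interval of -0.84 to 0.04 spans a change as large as that of the guide as well as no change (edgeR adjusted p = 0.72).

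The passenger arm of Mir128-2 was close to the limit of what these libraries count. miR-128-2-5p held 21, 26 and 24 counts in Dicer1-ifKO replicates 1, 2 and 3, against 15, 28 and 25 counts in WT replicates 1, 2 and 3. Its level was 0.50 ± 0.012 CPM in Dicer1-ifKO and 0.48 ± 0.15 CPM in WT (SD, n = 3 each). WT replicate 1 was the lowest of all 6 libraries, and the Dicer1-ifKO values lay inside the WT range. The log2 change was 0.08 ± 0.28 (SE) with a 95% interval of -0.52 to 0.67 (edgeR adjusted p = 0.99), so a difference of the guide's size was not detectable at this depth. Without WT replicate 1 its sign turned, to -0.16.

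In all, 0 of the 4 miR-128 rows passed edgeR's test, while 6.59% of the 546 tested miRNA rows and 0.795% of all tested features were called lower, and 0% and 0.0153% were called higher. At an unadjusted p under 0.05, 2 rows were lower, both of them miR-128-3p, against 31.1% of miRNA rows, and DESeq2 called 0 with the same 2 rows under that unadjusted threshold. The CPM values of these 2 rows did not overlap between the groups, and neither did those of 33.9% of the tested miRNA rows in that direction and 2.01% in the other. The median log2 change of the tested miRNA rows was -0.24, and 32.4% of them lay below the Mir128-1 row and 25.5% below the Mir128-2 row. The guide thus stood somewhat below the middle of the miRNAs and well short of the largest falls.

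**Figure D2:**
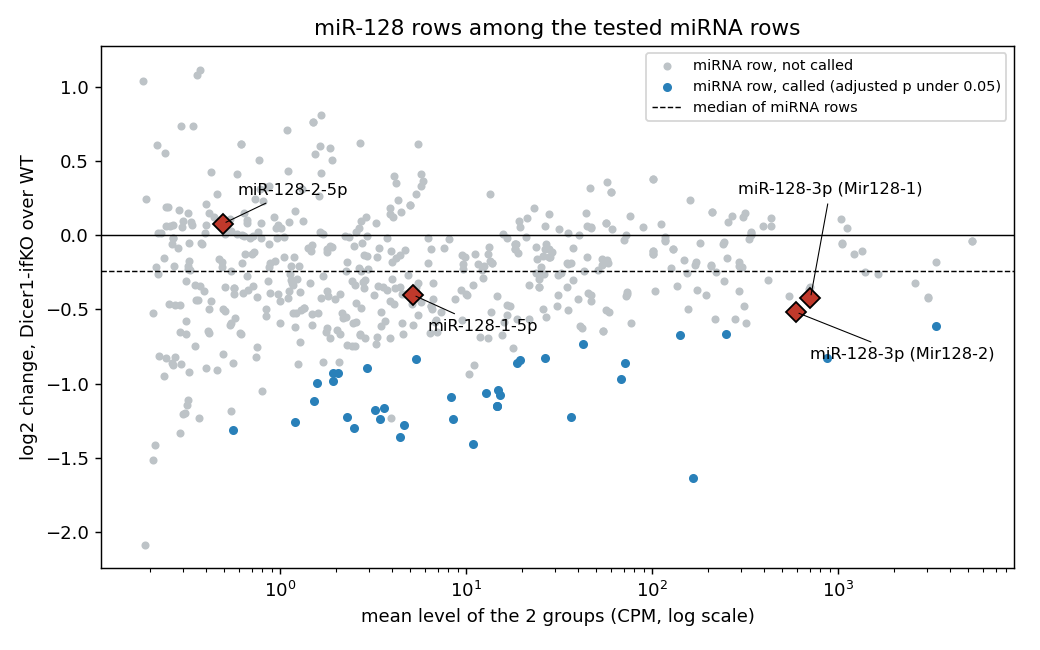
The log2 change of Dicer1-ifKO over WT for the 546 tested miRNA rows (vertical axis) against their mean level in CPM (horizontal log axis), with called rows in blue, the 4 miR-128 rows as red diamonds and the miRNA median of -0.24 dashed. The miR-128-3p rows lie at the abundant end at -0.43 and -0.52, below the dashed line and among uncalled rows.

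The size of the difference depended on the scaling between libraries. When TMM factors were taken from the miRNA rows, the median miRNA change moved to 0.0013 and that of all features to 0.19. The miR-128-3p rows then stood at -0.19 and -0.27 on the log2 scale, and miR-128-1-5p at -0.14, all still below the miRNA median (edgeR adjusted p = 0.69, 0.59 and 0.82, in that order). Leaving out WT replicate 1 brought the Mir128-2 row past the threshold (log2 -0.58, edgeR adjusted p = 0.019) but not the Mir128-1 row (log2 -0.44, adjusted p = 0.097). No other library, left out in turn, brought a miR-128 row past it. A fit of miRNA rows only gave the miR-128-3p rows log2 changes of -0.19 and -0.27, and miR-128-1-5p -0.14. None of these passed there (edgeR adjusted p = 0.21, 0.075 and 0.65, in that order).

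**Figure D3:**
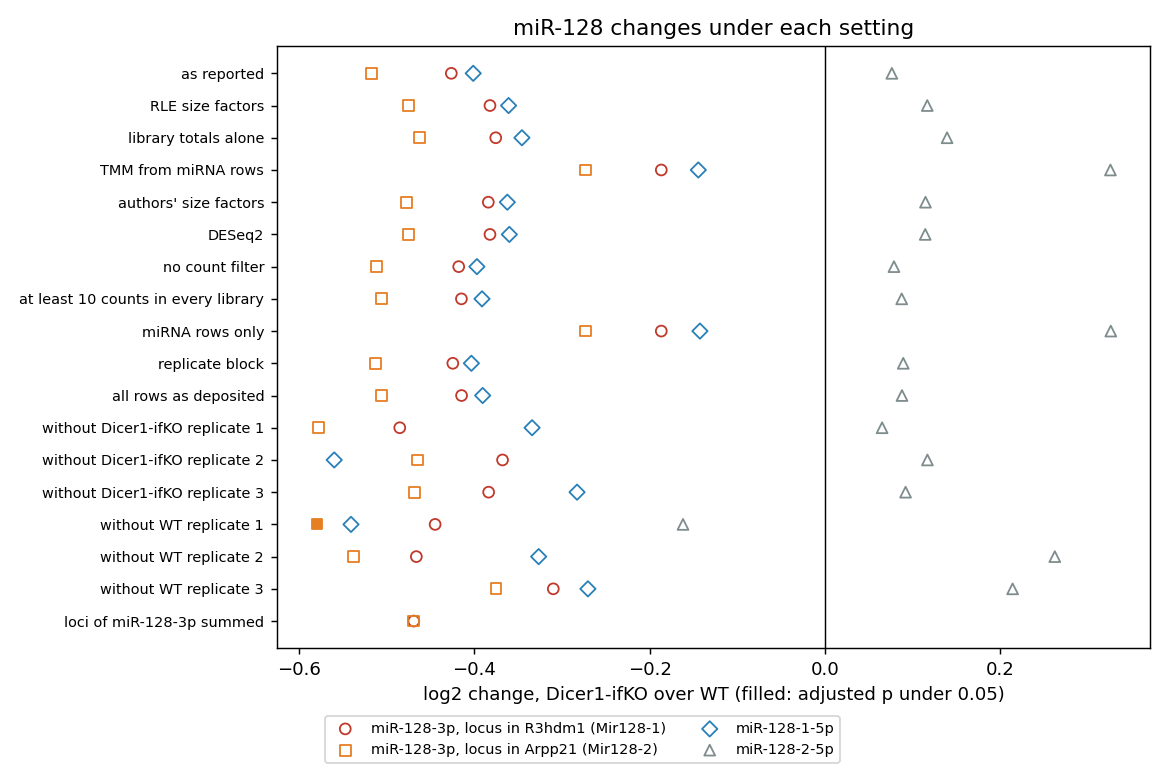
The log2 change of Dicer1-ifKO over WT (horizontal axis) for each miR-128 row under each scaling, filter, test and left-out library (vertical axis), filled where the adjusted p is under 0.05. Only the Mir128-2 row of miR-128-3p without WT replicate 1 is filled, and the values nearest to 0 for the miR-128-3p rows, -0.19 and -0.27, are those scaled by the miRNA rows.

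Measures that need no scaling against other RNA classes were compared next, by exact permutation, two-sided, of the library labels. The smallest p that 3 libraries against 3 allow is 0.1. The 4 rows together took 2.10%, 2.02% and 2.10% of the miRNA counts in Dicer1-ifKO replicates 1, 2 and 3. In WT replicates 1, 2 and 3 they took 2.56%, 2.35% and 2.46%. The shares did not overlap and averaged 2.07% ± 0.046 in Dicer1-ifKO and 2.46% ± 0.10 in WT (SD, n = 3 each), a difference of -0.39 percentage points with an exact p = 0.1, the smallest possible, and an adjusted p = 0.3 over 3 comparisons. With each miRNA name counted only at its highest row, so that miR-128-3p entered once, the difference was -0.22 percentage points (exact p = 0.1). Shares without overlap were common: 22.5% of the tested miRNA rows were lower and 11.0% higher in this sense.

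The balance of guide to passenger showed no difference beyond the spread of the libraries. Counts of miR-128-3p exceeded those of both 5p arms together 260-fold, 174-fold and 243-fold in Dicer1-ifKO replicates 1, 2 and 3, against 287-fold, 203-fold and 236-fold in WT replicates 1, 2 and 3. Replicates of either genotype thus differed more from each other than the genotypes did. The difference of the mean log2 ratios was -0.11 (SD 0.31 in Dicer1-ifKO and 0.25 in WT, n = 3 each, exact permutation p = 0.7, adjusted p = 0.7), and it changed sign without Dicer1-ifKO replicate 2 (0.069) or without WT replicate 1 (0.021). Over all 6 libraries the guide held 368165 counts and the passengers 1472 and 139, so that passengers made up 0.44% of miR-128. The guide counts here sum both rows, so a read counted in each would enlarge the ratios and lower that share.

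Between the passengers, Mir128-1 gave most of the counts in every library. The ratio of miR-128-1-5p to miR-128-2-5p was 7.86, 11.2 and 7.54 in Dicer1-ifKO replicates 1, 2 and 3, and 15.1, 10.9 and 12.2 in WT replicates 1, 2 and 3. The ranges overlapped, through Dicer1-ifKO replicate 2 and WT replicate 2. The mean log2 ratio was 3.12 ± 0.31 in Dicer1-ifKO and 3.66 ± 0.24 in WT (SD, n = 3 each), and the difference of -0.53 had an exact permutation p = 0.2 and an adjusted p = 0.3. The denominator, miR-128-2-5p, had 15 to 28 counts in a library.

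The guide's counts were divided unevenly between its loci. Over all libraries the Mir128-2 row held 0.83 of the counts of the Mir128-1 row. Of 23 miRNAs with several rows and at least 1000 counts in the highest, 20 had a lowest row of at least 0.9 of the highest. miR-128-3p was the second least even, after miR-92a-3p at 0.083. The Mir128-1 row took 55.4%, 55.3% and 55.7% of the miR-128-3p counts in Dicer1-ifKO replicates 1, 2 and 3, and 55.6%, 53.1% and 53.2% in WT replicates 1, 2 and 3. WT replicate 1 lay inside the Dicer1-ifKO range and the other WT libraries below it. This comparison was chosen after the values were seen, and its difference of 1.52 percentage points had an exact permutation p = 0.3 (adjusted p = 0.4 over 4 comparisons). How reads that fit both loci were placed is not given in the sources used here, so these shares are not levels of the loci.

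**Figure D4:**
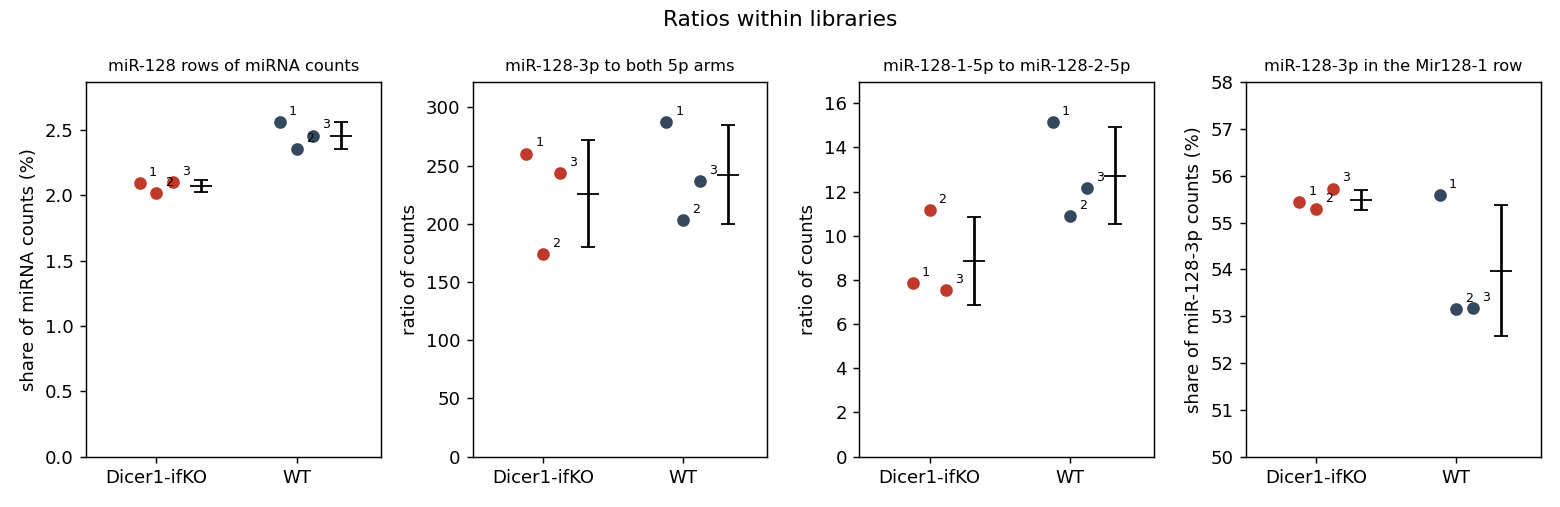
From left to right, for the 3 Dicer1-ifKO and the 3 WT libraries with group mean and SD: the share of miR-128 in the miRNA counts (%), the ratio of miR-128-3p to both 5p arms, the ratio of miR-128-1-5p to miR-128-2-5p, and the share of miR-128-3p counts in the Mir128-1 row (%, axis from 50). The first panel has no overlap (2.02% to 2.10% in Dicer1-ifKO, 2.35% to 2.56% in WT), and the other 3 panels do.

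The host transcripts were seen almost only through their miRNA. The R3hdm1 span with the most counts held 202659 counts, of which 202435 lay in its miR-128 rows, and the Arpp21 span held 167534, of which 167341 did. Their log2 changes, -0.43 and -0.52, are therefore those of miR-128-3p. Outside the miR-128 rows, R3hdm1 had 29, 52 and 38 counts in Dicer1-ifKO replicates 1, 2 and 3, and 38, 46 and 21 in WT replicates 1, 2 and 3. Arpp21 had 30, 29 and 27 counts in Dicer1-ifKO and 46, 26 and 35 in WT, in the same order of replicates. These remainders overlapped between the groups. Their log2 changes were 0.19 ± 0.27 (SE, 95% interval -0.40 to 0.78) for R3hdm1 and -0.29 ± 0.25 (SE, 95% interval -0.84 to 0.26) for Arpp21, with edgeR adjusted p = 0.98 and 0.93. They are fragments in a small RNA library and not a measure of host mRNA.

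Seed relatives were sought as miRNAs with the whole miR-128-3p seed, or with its first 6 bases 1 position further from the 5′ end. The search found miR-27a-3p and miR-27b-3p, by the shifted match. Other partial matches were not searched. The seed of miR-27, bases 2 to 8, is again in capitals, so that the shift can be seen against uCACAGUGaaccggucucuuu above.
miR-27a-3p: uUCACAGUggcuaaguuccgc
miR-27b-3p: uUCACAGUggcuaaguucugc
miR-27a-3p had 53.5, 40.2 and 42.8 CPM in Dicer1-ifKO and 39.8, 40.7 and 50.5 CPM in WT, a log2 change of 0.06 ± 0.17 (SE, edgeR adjusted p = 0.99). miR-27b-3p had 1446, 1138 and 1225 CPM in Dicer1-ifKO and 1398, 1363 and 1770 CPM in WT, a log2 change of -0.25 ± 0.15 (SE, edgeR adjusted p = 0.80). In both, the groups overlapped. Without WT replicate 3 the log2 change of miR-27b-3p was -0.078, and under TMM factors from miRNA rows it was -0.0079 for miR-27b-3p and 0.30 for miR-27a-3p. Whether their changes differ from that of miR-128-3p was not tested.

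**Figure D5:**
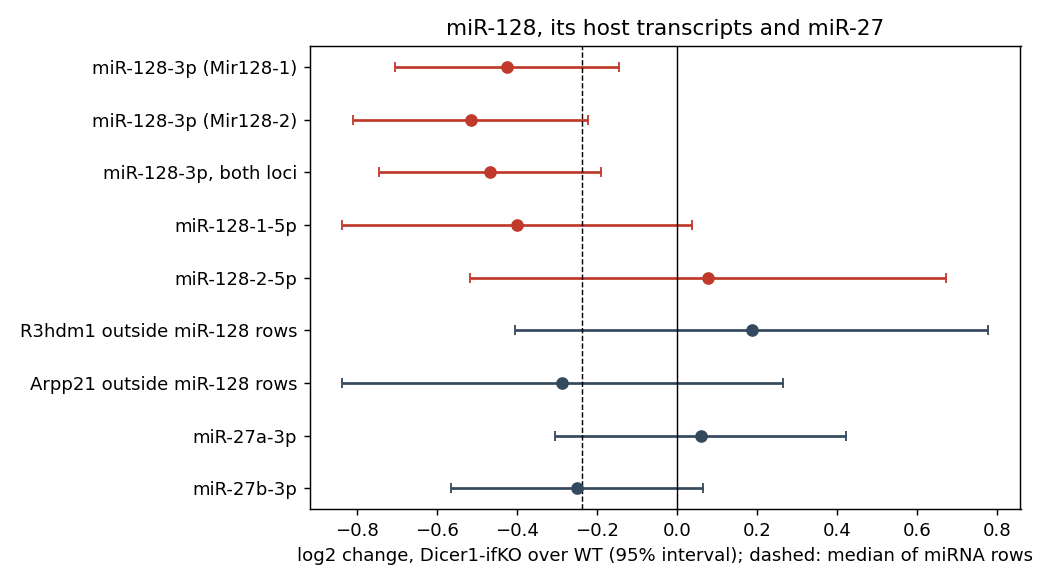
The log2 change of Dicer1-ifKO over WT with its 95% interval (horizontal axis) for the miR-128 rows in red, and in dark grey for the reads of both host transcripts outside them and for miR-27, with the miRNA median of -0.24 dashed. The intervals of miR-128-3p, such as -0.75 to -0.19 for both loci summed, lie below 0 but take in the miRNA median, and the other 6 include 0.

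In level, miR-128-3p was the eleventh most abundant of 507 tested miRNA names over the 6 libraries, with the rows of a name summed. A read covers a whole mature miRNA, so CPM was compared between miRNAs without division by length. It stood at rank 13 in Dicer1-ifKO and rank 10 in WT. Just above it were miR-27b-3p and miR-29a-3p (1292 ± 88.0 CPM in Dicer1-ifKO and 1394 ± 104 CPM in WT), and just below it miR-30d-5p (1073 to 1237 CPM in Dicer1-ifKO and 1123 to 1399 CPM in WT) and miR-92b-3p (1125 ± 73.7 CPM in Dicer1-ifKO and 1088 ± 140 CPM in WT, SD, n = 3 each). In Dicer1-ifKO libraries the range of miR-128-3p overlapped those of these neighbours except miR-29a-3p, which was higher. In WT libraries it overlapped those of miR-27b-3p and miR-29a-3p and lay above those of miR-30d-5p and miR-92b-3p. The level and ranks of miR-128-3p take the sum of its rows, and a read counted at both loci would enter that sum at each. Its Mir128-1 row alone had 604 ± 39.2 CPM in Dicer1-ifKO and 811 ± 71.9 CPM in WT (SD, n = 3 each). That is below all of these neighbours, which have 1 row each. miR-128-1-5p ranked 217 and miR-128-2-5p ranked 431 of the 507.

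The miRNA rows whose log2 CPM ran most alike with the summed miR-128-3p over the 6 libraries were those of miR-26a-5p on chromosomes 9 and 10 (Pearson's r 0.989 and 0.987), miR-381-3p (0.989), miR-487b-3p (0.988) and miR-300-3p (0.987), the last 3 from chromosome 12. Taken as deviations from the group means, their r ran from 0.925 to 0.968. These rows were picked by r in the same libraries, and no background is given for the values within groups. Likeness over the 6 libraries was common, since 102 of 389 rows with a mean of at least 50 counts had r of at least 0.9 and the median was 0.73. The points share library, scaling and genotype. Of these rows miR-300-3p alone passed the test, at 109 ± 5.21 CPM in Dicer1-ifKO and 174 ± 17.7 CPM in WT (SD, n = 3 each; edgeR adjusted p = 0.047). Left out in turn, WT replicate 1 was the only library that did not end this call (adjusted p = 0.12 to 0.59 without each of the others), and under TMM factors from miRNA rows its log2 change was -0.43 in place of -0.67 (adjusted p = 0.43). The call also ended under RLE (relative log expression) factors, library totals alone and the authors' size factors (adjusted p = 0.089 to 0.15). It ended with no count filter (adjusted p = 0.16) and with rows of identical counts kept (adjusted p = 0.056). DESeq2 kept it (adjusted p = 0.0496), as did at least 10 counts in every library (edgeR adjusted p = 0.038). A fit of miRNA rows only kept it as well (edgeR adjusted p = 0.024).

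Among other neuron-enriched miRNAs, 3 of 37 tested rows fell and 0 rose. Of all tested miRNA rows 6.59% were called lower, so the share in the list was near the background. A miRNA with several loci enters both shares once for each, so its rows are not separate results. The median log2 change of the list was -0.20, beside -0.24 for all miRNA rows. The 3 rows were miR-212-3p (31.8 ± 2.93 CPM in Dicer1-ifKO, 52.9 ± 5.04 CPM in WT) and miR-129-5p at both its loci, of which the chromosome 6 row had 9.66 ± 0.87 CPM in Dicer1-ifKO and 19.9 ± 0.32 CPM in WT (SD, n = 3 each; edgeR adjusted p = 0.048 for miR-212-3p and 0.0077 for that row). Left out in turn, each library but WT replicate 1 likewise ended the call of miR-212-3p (edgeR adjusted p = 0.087 to 0.59). It ended too under RLE factors, library totals alone, the authors' size factors, no count filter and with rows of identical counts kept (adjusted p = 0.057 to 0.12), and under TMM factors from miRNA rows (log2 change -0.50, adjusted p = 0.38). The call of miR-212-3p stood under DESeq2 (adjusted p = 0.037) and with at least 10 counts in every library (edgeR adjusted p = 0.038). It also stood in a fit of miRNA rows only (edgeR adjusted p = 0.021). Both calls of miR-129-5p ended without Dicer1-ifKO replicate 2 or replicate 3 (adjusted p = 0.10 to 0.26). That of its chromosome 6 row also ended under TMM factors from miRNA rows (log2 change -0.82, adjusted p = 0.11). In a fit of miRNA rows only, that row kept its call (log2 change -0.82, edgeR adjusted p = 0.0026). The most abundant, miR-9-5p, had log2 changes of 0.00067 to 0.02 over its 3 rows, and of 0.25 to 0.27 under TMM factors from miRNA rows. The log2 change of miR-128-3p lay between those of the 3 rows that fell and those of miR-9-5p.

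Marker miRNAs of other cells stood as follows beside the lower miR-128-3p, and their part in it was not tested. Some rows of a list hold nearly the same reads, so the sums are not molecule numbers. The 8 tested rows of the oligodendrocyte list, led by miR-338-3p and the miR-219a-2-3p and miR-219b-5p rows, summed to 300.2 to 412 CPM in Dicer1-ifKO and 262 to 399 CPM in WT. Those of the vessel list (5 rows, with miR-143-3p and miR-126a-5p) summed to 459 to 622 CPM in Dicer1-ifKO and 362 to 595 CPM in WT. The microglia and leukocyte list had 4 tested rows of 10 listed, with miR-150-5p, miR-142-5p and miR-146a-5p. It summed to 200.2 to 226 CPM in Dicer1-ifKO and 162 to 199 CPM in WT. These sums did not overlap, but Dicer1-ifKO replicate 3 (200.2 CPM) and WT replicate 3 (198.7 CPM) nearly met. Most of each sum was miR-150-5p, with means of 173 CPM in Dicer1-ifKO and 147 CPM in WT. The log2 change of miR-150-5p was 0.24 ± 0.14 (SE, edgeR adjusted p = 0.81). No background is given for overlap between such sums. The erythrocyte list (3 rows, miR-451a and the miR-486 pair) summed to 184 to 225 CPM in Dicer1-ifKO and 207 to 233 CPM in WT. No row of these lists passed edgeR's test in either direction, beside 6.59% of all tested miRNA rows called lower and 0% called higher. Lists this small could show no call at that share. Their median log2 changes were 0.11, 0.15, 0.21 and -0.13 in the order given, beside -0.24 for all tested miRNA rows.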

How the data were processed

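Small RNA libraries were made with the Illumina small RNA TruSeq protocol from pooled hippocampal RNA and sequenced on a HiSeq instrument, per the labels' protocols. The deposited raw columns hold whole-number read counts per feature, and the deposited normalized columns hold a signal that equals the counts times 1 constant per library. The submitters' processing notes name CASAVA 1.8.2, BWA, SAMtools 0.1.18, DESeq2 and GRCm38 (mm10) without roles. The sources used here do not name the counter, its strand setting or how reads with several loci were placed. The header of the WT replicate 2 file gives GRCm38.

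The members and lists were chosen with earlier results of these data known. Rows of 1 gene with identical counts in all libraries were counted once (13787 rows removed). All features were fitted together in edgeR 4.0.16 (R 4.3.3) with filterByExpr (minimum count 10), TMM, robust glmQLFit and a two-sided glmQLFTest, adjusted by Benjamini-Hochberg and read at a threshold of 0.05, after a check on simulated data. Standard errors and 95% intervals were derived from the F statistic. Summed feature counts count a read in every feature that holds it, so CPM is not per read. Ratios were compared by exact permutation (SciPy 1.17.1). Named rows were all miR-128 rows, host spans, seed relatives, the 5 most alike rows, the neighbours in level, abundant list members and Dicer1; miR-212-3p and miR-129-5p were named after their values were seen. Libraries of 1 group differed by more than counting noise (chi-square per degree of freedom 22.0 to 65.3 over miRNA rows). PCR copies could not be separated from molecules. The intervals, like the p-values of the fit, rest on the variation among the pools of a group, counting and library error included. For each row the fit estimates that variation partly from the other features. Alternatives were other scalings, filters, DESeq2 1.42.0, a replicate block, summed loci, and leaving out each library.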

Additional observations from a re-analysis of the deposited data

How the results depend on the processing

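Of 130 alternative values for the miR-128 rows, their ratios and shares and the host spans, all but 6 counted as the same as the reported value. For rows and spans this meant the same direction and side of the threshold. For ratios and shares it meant the direction alone, since their exact permutation p cannot go below 0.1. The spans hold almost only the reads of the miR-128 rows, so their values are not separate ones. For the other miRNA rows named, 166 alternative values kept direction and side of the threshold, 31 lost their call and 11 turned in direction. Without WT replicate 1 the Mir128-2 row (-0.58) and the Arpp21 span around it (-0.58) passed, both at an edgeR adjusted p = 0.019, and miR-128-2-5p turned to -0.16. With miR-128 reads subtracted, the R3hdm1 span turned to 0.19. Leaving out each library in turn gave log2 changes of -0.48 to -0.31 for the Mir128-1 row of miR-128-3p, -0.58 to -0.38 for its Mir128-2 row, -0.56 to -0.27 for miR-128-1-5p, -0.16 to 0.26 for miR-128-2-5p, -0.48 to -0.31 for the R3hdm1 span and -0.58 to -0.37 for the Arpp21 span. It gave differences of -0.23 to 0.069 for the log2 ratio of guide to passengers, turning positive without Dicer1-ifKO replicate 2 (0.069) or WT replicate 1 (0.021). It gave -0.71 to -0.40 for the log2 ratio between passengers, -0.44 to -0.33 percentage points for the share of miRNA counts, and 1.11 to 2.33 percentage points for the share in the Mir128-1 row. Among other miRNAs named, which were near 0, it gave -0.10 to 0.22 for the 3 miR-9-5p rows (from -0.072 to 0.22 on chromosome 3, -0.095 to 0.22 on chromosome 7 and -0.10 to 0.20 on chromosome 13) and -0.079 to 0.22 for miR-27a-3p. The causes of these turns were not tested. Replicate numbers gave no clear sign of pairing, though 3 libraries in each group are too few to exclude it. Deviations of same-numbered libraries correlated at -0.18, 0.075 and -0.16 over all features, and at -0.046, 0.255 and -0.26 over miRNA rows. With the replicate number as a block the miR-128-3p rows had log2 changes of -0.42 and -0.51 (edgeR adjusted p = 0.36 and 0.26), and no miR-128 call changed, while miR-300-3p, miR-212-3p and both miR-129-5p rows were no longer called (edgeR adjusted p = 0.063 to 0.22). Depth limits miR-128-2-5p and the host remainders.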
